A study of Mus musculus with 12 samples.

Results

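Chromatin accessibility was examined at 10 mouse genes through which liver macrophages and monocytes act on their surroundings: the growth factor genes Igf1, Pdgfa, Pdgfb, Pdgfc, Tgfb1 and Vegfa, the cytokine gene Osm, the fibronectin gene Fn1, and the protease genes Mmp12 and Mmp14. The measurement was ATAC-seq, which reads where a transposase can reach and tag the DNA, and the deposited result was 1 list of peaks for each of 6 cell populations. A peak belonged to a gene when its centre lay inside the gene, or when that gene was the nearest protein-coding gene and no more than 100 kb away in mm10. By this rule 378 of 334073 peaks belonged to the 10 genes. Peaks of different lists that overlapped were joined into merged regions, of which 123 of 100354 belonged to the 10 genes.

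All cells came from C57BL/6J mice, and each population was represented by 2 libraries. Mice fed the NASH diet, a model of fatty liver inflammation (nonalcoholic steatohepatitis), gave 5 populations. KN-RM were cells with high F4/80 and no Tim4, which the labels describe as Kupffer cells although their name has the suffix of the recruited macrophages, so their origin is not settled here. KC-N were Kupffer cells with high F4/80 and with Tim4. Ly6CLo-RM and Ly6CHi-RM were recruited liver macrophages with high CD11b and with low or high Ly6C, and Blood-Ly6CHi-NASH were Ly6C-high blood monocytes. KC-H, sorted as KC-N, came from mice on a control diet and is the only population without the NASH diet. Kupffer cells are the macrophages that live in the liver sinusoids. The liver populations were isolated by perfusion and enzymatic digestion in the presence of flavopiridol, an inhibitor of transcription.

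Macrophages make factors that act on neighbouring cells. Insulin-like growth factor 1 sustains growth and repair, platelet-derived growth factors drive division and migration of stellate cells and fibroblasts, TGF-beta 1 is the best known inducer of matrix production in the liver, VEGF-A acts on endothelium, and oncostatin M signals to hepatocytes and stromal cells through the gp130 receptor. Fibronectin is an early component of wound matrix. Macrophage elastase, encoded by Mmp12, cuts elastin, and the membrane-bound protease encoded by Mmp14 cuts collagen and activates another matrix metalloproteinase. An ATAC-seq peak marks DNA that is open in some of the cells, often a promoter or an enhancer, and does not by itself measure transcription.

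Promoter sequences, from RefSeq on GRCm38.p6, reach from 250 bases before a transcription start to 50 bases after it. A promoter counted as under a peak when a peak overlapped any part of it, which need not include the start itself. They were matched by symbol for 7 of the 10 genes, with 10 promoters, of which 7 lay under a peak of at least 1 list. The share of all promoters under a peak of at least 1 list was not counted, only the share for each list. By list, 3 of the 10 were under a peak in KN-RM, 6 in KC-N, 4 in KC-H, 3 in Ly6CLo-RM, 3 in Ly6CHi-RM and 4 in blood. Of 21263 promoters of protein-coding genes the shares were, in the same order, 39.8%, 43.5%, 46.9%, 45.0%, 45.9% and 47.3%. KC-N stood above its background and the other lists below theirs, each by few promoters. Both promoters of Mmp12 were among the 6 of KC-N. With 10 promoters in all, these differences are not read as a contrast between lists. Under no peak were the promoter of Mmp14, the promoter of Vegfa at chr17:46025114-46025413 and the promoter of Pdgfa at chr5:138994232-138994531. The 5 printed here, 1 start per gene, were chosen because they differ in the lists that cover them. Tgfb1 lies at chr7:25686752-25687051 on the plus strand and was under a peak of all 6 lists. Vegfa lies at chr17:46032328-46032627 on the minus strand and was under a peak of KC-N, Ly6CLo-RM, Ly6CHi-RM and blood. Pdgfc lies at chr3:81036166-81036465 on the plus strand and was under a peak of KC-N and KC-H. Igf1 lies at chr10:87860861-87861160 on the plus strand and was under a peak of KC-H alone. Mmp12, shown at its downstream start, lies at chr9:7347124-7347423 on the plus strand and was under a peak of KN-RM and KC-N alone. Capitals mark matches on either strand. The letters searched were those of AP-1 factors (TGANTCA), of ETS factors of the PU.1 type (GGAAGTG, or else GAGGAA), of the hypoxia response (ACGTG, or else GCGTG), of SMAD proteins (CAGACA), of SP and KLF factors (GGGCGG), and of the TATA box (TATAAA).
Tgfb1: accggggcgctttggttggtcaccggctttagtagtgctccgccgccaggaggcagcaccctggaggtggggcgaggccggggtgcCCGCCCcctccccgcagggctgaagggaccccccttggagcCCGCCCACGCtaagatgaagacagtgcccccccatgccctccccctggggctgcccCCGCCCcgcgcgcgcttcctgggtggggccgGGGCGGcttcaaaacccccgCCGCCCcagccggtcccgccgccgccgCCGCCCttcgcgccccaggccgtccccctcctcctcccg
Vegfa: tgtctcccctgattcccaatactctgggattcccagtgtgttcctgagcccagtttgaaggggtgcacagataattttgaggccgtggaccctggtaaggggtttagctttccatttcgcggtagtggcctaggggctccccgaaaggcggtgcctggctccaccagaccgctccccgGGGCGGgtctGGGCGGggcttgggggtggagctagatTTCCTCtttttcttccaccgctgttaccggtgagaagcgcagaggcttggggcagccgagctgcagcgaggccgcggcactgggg
Pdgfc: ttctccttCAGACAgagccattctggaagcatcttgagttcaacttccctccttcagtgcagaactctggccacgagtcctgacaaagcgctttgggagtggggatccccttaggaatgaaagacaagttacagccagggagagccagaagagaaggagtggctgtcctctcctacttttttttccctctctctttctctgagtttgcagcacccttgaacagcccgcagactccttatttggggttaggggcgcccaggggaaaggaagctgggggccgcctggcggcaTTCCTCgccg
Igf1: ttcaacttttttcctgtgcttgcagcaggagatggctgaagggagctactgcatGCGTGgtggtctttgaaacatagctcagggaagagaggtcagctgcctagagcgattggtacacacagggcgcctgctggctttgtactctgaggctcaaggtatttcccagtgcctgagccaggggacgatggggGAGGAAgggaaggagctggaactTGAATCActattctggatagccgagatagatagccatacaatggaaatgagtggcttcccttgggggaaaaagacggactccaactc
Mmp12: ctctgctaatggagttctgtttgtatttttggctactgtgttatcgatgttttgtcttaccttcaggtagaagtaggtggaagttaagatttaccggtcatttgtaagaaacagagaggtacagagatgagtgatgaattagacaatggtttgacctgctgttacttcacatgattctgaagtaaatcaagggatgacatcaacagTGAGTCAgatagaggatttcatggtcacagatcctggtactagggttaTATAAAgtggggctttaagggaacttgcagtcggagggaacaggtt

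The Tgfb1 promoter held 6 matches to GGGCGG, 1 of which overlapped a GCGTG match by 1 base, and no match to the AP-1 letters. Of all 32851 promoters in the same table, 35.7% held GGGCGG and 32.4% held GCGTG. In Vegfa, 2 matches to GGGCGG and 1 to GAGGAA, letters held by 28.3% of all promoters, were under the peaks of the 4 lists. The Mmp12 promoter held the AP-1 letters at bases 207 to 213, chr9:7347330-7347336, under the peaks of KN-RM and KC-N, and TATAAA at bases 255 to 260. The AP-1 letters occurred in 7.81% of all promoters and TATAAA in 13.6%. In Igf1 the AP-1 letters stood at bases 214 to 220, beyond the KC-H peak, which covered bases 7 to 207. The Pdgfc promoter held CAGACA, found in 21.0% of all promoters, within the part covered by its peaks. The other motifs searched occurred in 11.0% (GGAAGTG) and 19.6% (ACGTG) of all promoters. A match describes the letters only.

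KN-RM held 49 peaks of the 10 genes, KC-N 74, KC-H 72, Ly6CLo-RM 56, Ly6CHi-RM 61 and blood 66. KN-RM also had the shortest list, 34293 peaks in all, against 69616 in blood, so counts were also made with every list cut to its 34293 best-scored peaks, here called equal-length lists. In those, the 10 genes had 49 peaks in KN-RM, 48 in KC-N, 33 in KC-H, 30 in Ly6CLo-RM, 34 in Ly6CHi-RM and 33 in blood. The authors gave each peak a whole-number score whose meaning is not stated in the sources used here. It was used only to rank peaks within a list, scores of different lists are not on a known common scale, and a percentile is the share of the list's peaks ranked below it. These peaks were of middling rank, with a median percentile from 38.2 in KN-RM to 52.4 in blood. All 10 genes had a peak in every list except KC-H, in which Vegfa and Osm had none. Each list was made from both libraries of its population, so no value per library could be compared and no difference below has a test. In pooled cells, a site open in fewer cells and a site less open in every cell cannot be told apart, and a site missing from a list is not thereby shown to be closed.

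**Figure D1:**
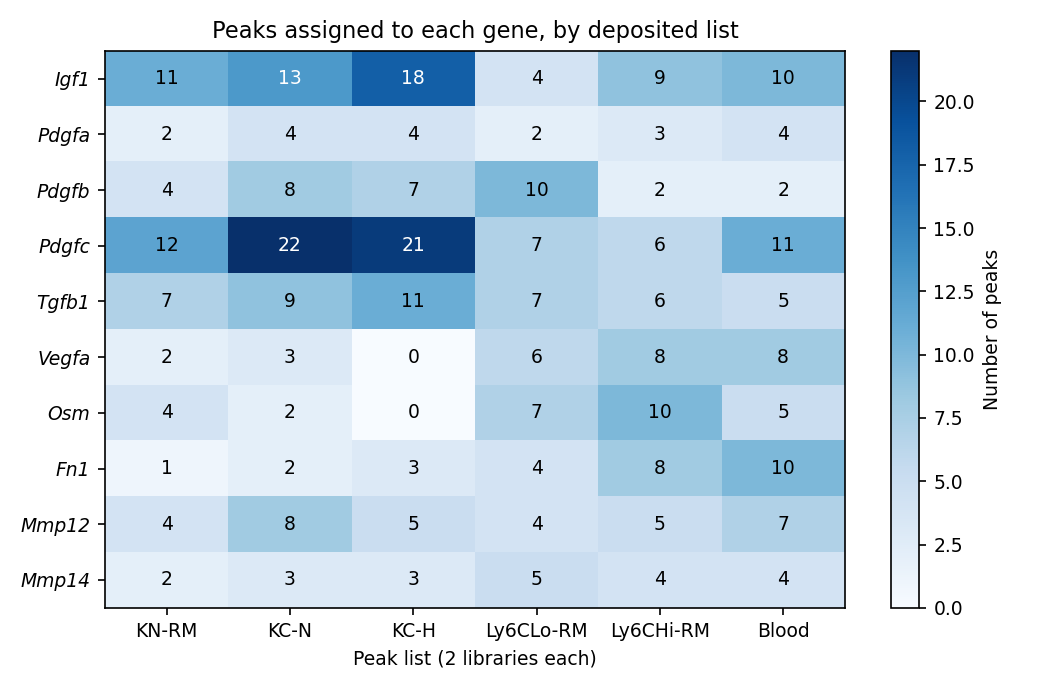
Number of peaks at each of the 10 genes (rows) in each of the 6 peak lists (columns), with darker cells for more peaks. Pdgfc has 22 peaks in KC-N and Igf1 18 in KC-H, while Vegfa and Osm have 0 in KC-H and 8 and 10 in Ly6CHi-RM.

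Igf1 (chr10:87858265-87937047) was richest in peaks in the F4/80-high cells. It had 11 peaks in KN-RM, 13 in KC-N, 18 in KC-H, 4 in Ly6CLo-RM, 9 in Ly6CHi-RM and 10 in blood, in 21 merged regions. Ly6CLo-RM had the fewest, as it did in equal-length lists, where the counts were 11 in KN-RM, 12 in KC-N, 8 in KC-H, 1 in Ly6CLo-RM, 6 in Ly6CHi-RM and 4 in blood. Of the 21 regions, 11 were in F4/80-high lists only and 2 in blood or Ly6CHi-RM only.

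Upstream of Igf1, 25.9 to 28.0 kb before the gene, stood a cluster of 3 regions held by all 6 lists. The region at chr10:87830728-87830955 had a score of 48 in KN-RM, 52 in KC-N, 101 in KC-H, 25 in Ly6CLo-RM, 102 in Ly6CHi-RM and 117 in blood. The last was the highest score of any Igf1 peak in the blood list, at percentile 89.0, whereas the Ly6CLo-RM peak stood at percentile 20.4. Nearer the gene, at chr10:87842184-87842431, Ly6CLo-RM was the only list without a peak; the scores were 44 in KN-RM, 49 in KC-N, 58 in KC-H, 83 in Ly6CHi-RM and 46 in blood.

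The regions of Igf1 held by all 3 F4/80-high lists and by no other were 4 in number. The intragenic region at chr10:87908846-87909068, 47.8 kb after the RefSeq start, had a score of 20 in KN-RM, 38 in KC-N and 88 in KC-H. Its neighbour at chr10:87910737-87910943 was held by KC-N, with a score of 46, and KC-H, with a score of 68. At chr10:87816949-87817235, 41.1 kb before the gene, the scores were 36 in KN-RM, 52 in KC-N and 30 in KC-H. Another 2 of the 4 lay at and just after the listed start of the gene. At and around the RefSeq promoter printed above, 4 regions were held by KC-H alone, with scores of 24 to 35, none above percentile 29.9, so these were weak peaks of that list.

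The PDGF genes differed from each other. Pdgfc (chr3:81036416-81214040) encodes a ligand that is cleaved outside the cell before it binds the PDGF receptor alpha. It had the most regions of the 10 genes, 27, with 12 peaks in KN-RM, 22 in KC-N, 21 in KC-H, 7 in Ly6CLo-RM, 6 in Ly6CHi-RM and 11 in blood. The 3 F4/80-high lists were again the ones with most peaks, and in equal-length lists they had 12, 13 and 9 peaks (KN-RM, KC-N, KC-H), against 4, 4 and 6 (Ly6CLo-RM, Ly6CHi-RM, blood). Of the 27 regions, 15 were in F4/80-high lists only and 1 was in blood only.

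The leading Pdgfc region, chr3:81051605-81051824, lay 15.3 kb inside the gene and was held by all 6 lists, with a score of 72 in KN-RM, 105 in KC-N, 150 in KC-H, 92 in Ly6CLo-RM, 116 in Ly6CHi-RM and 123 in blood. These scores stood at percentiles of 85.6 to 93.9, so the site was among the well-ranked peaks in each population. Regions held by the 3 F4/80-high lists and no other numbered 4. The highest-ranked of them, chr3:81262867-81263107, lay 48.9 kb beyond the gene and had a score of 25 in KN-RM, 54 in KC-N and 35 in KC-H. Nearer the start, the region at chr3:81041031-81041275, 4.74 kb from it, had a score of 24 in KN-RM, 35 in KC-N and 56 in KC-H. Just before the start, a peak of KC-N with a score of 31 and of KC-H with a score of 47 overlapped the RefSeq promoter. They covered its bases 1 to 183 and did not reach the start itself. At 0.355 kb after the start a further region was held by these lists, KN-RM and blood.

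Pdgfb (chr15:79995865-80024614) encodes the chain that binds PDGF receptors alpha and beta, and it was the gene with most peaks in Ly6C-low macrophages. It had 4 peaks in KN-RM, 8 in KC-N, 7 in KC-H, 10 in Ly6CLo-RM, 2 in Ly6CHi-RM and 2 in blood. Ly6CHi-RM and blood held the same pair of regions, which all 6 lists shared. At chr15:80034943-80035160, 10.4 kb outside the gene, the score was 55 in KN-RM, 64 in KC-N, 103 in KC-H, 75 in Ly6CLo-RM, 61 in Ly6CHi-RM and 59 in blood. At chr15:80030459-80030710 it was 49 in KN-RM, 62 in KC-N, 87 in KC-H, 69 in Ly6CLo-RM, 57 in Ly6CHi-RM and 50 in blood.

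At the upper end of Pdgfb the lists parted. The region at chr15:80025772-80026018, 1.26 kb outside the gene, was held by KN-RM with a score of 39, KC-N with 44 and Ly6CLo-RM with 51, and by no other list. It stood between percentiles 59.2 and 62.6 of these lists. Just inside the end of the gene, chr15:80024351-80024551 was held by Ly6CLo-RM alone, with a score of 37 at percentile 45.8. A further 6 regions, from chr15:80014863-80015106 to chr15:80037280-80037515, were in Ly6CLo-RM and in 1 or 2 F4/80-high lists or in no other list. In equal-length lists Ly6CLo-RM kept the most Pdgfb peaks, with 5, against 4 in KN-RM, 4 in KC-N, 3 in KC-H, 2 in Ly6CHi-RM and 2 in blood.

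Pdgfa (chr5:138976014-139000792), whose product pairs with itself or with the Pdgfb chain, had 5 regions, all inside the gene. Peaks numbered 2 in KN-RM, 4 in KC-N, 4 in KC-H, 2 in Ly6CLo-RM, 3 in Ly6CHi-RM and 4 in blood, and in equal-length lists 2 in KN-RM, 4 in KC-N, 2 in KC-H, 0 in Ly6CLo-RM, 1 in Ly6CHi-RM and 2 in blood. The promoter region at chr5:138994829-138995135 was held by all 6 lists, with a score of 27 in KN-RM, 32 in KC-N, 75 in KC-H, 30 in Ly6CLo-RM, 61 in Ly6CHi-RM and 84 in blood. Only in KC-H, Ly6CHi-RM and blood was this peak above the middle of its list. Of the 5 regions, 1 was in F4/80-high lists only and 1 in blood only.

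Tgfb1 (chr7:25687002-25705077) had peaks in every list, with 7 peaks in KN-RM, 9 in KC-N, 11 in KC-H, 7 in Ly6CLo-RM, 6 in Ly6CHi-RM and 5 in blood. In equal-length lists these became 7 in KN-RM, 7 in KC-N, 7 in KC-H, 6 in Ly6CLo-RM, 5 in Ly6CHi-RM and 5 in blood. Of its 12 regions, 5 were in all 6 lists, the most of any of the 10 genes. The highest-scored was chr7:25689221-25689472, 2.34 kb after the start, with a score of 74 in KN-RM, 102 in KC-N, 199 in KC-H, 151 in Ly6CLo-RM, 177 in Ly6CHi-RM and 162 in blood, at percentiles of 92.0 to 97.7. The promoter itself had a score of 41 in KN-RM, 53 in KC-N, 105 in KC-H, 112 in Ly6CLo-RM, 135 in Ly6CHi-RM and 134 in blood. This promoter region also lay close to another gene, 0.388 kb from B9d2.

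Beside these shared sites, Tgfb1 had 5 regions in F4/80-high lists only and none in blood or CD11b-high lists only. The region at chr7:25703869-25704104, near the far end of the gene, was held by the 3 F4/80-high lists and no other, with a score of 46 in KN-RM, 54 in KC-N and 131 in KC-H, at percentiles of 70.8 to 90.5. It was the best-ranked of the 10 regions at these genes that the 3 F4/80-high lists alone held. A neighbouring region at chr7:25707608-25707901, 2.63 kb beyond the gene, had a score of 85 in KN-RM, 92 in KC-N, 117 in KC-H, 118 in Ly6CLo-RM, 174 in Ly6CHi-RM and 121 in blood. It lay 3.36 kb from Ccdc97, the next gene, so its assignment to Tgfb1 rests on a small difference in distance.

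Vegfa (chr17:46016993-46032377) had no peak in control-diet Kupffer cells. Its counts were 2 in KN-RM, 3 in KC-N, 0 in KC-H, 6 in Ly6CLo-RM, 8 in Ly6CHi-RM and 8 in blood, in 11 regions. The nearest KC-H peak to the gene was 41.7 kb away and belonged to Mrps18a. Of the 11 regions, 7 were in blood or CD11b-high lists only, none was in F4/80-high lists only, and 4 were in both kinds of list.

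The best-ranked Vegfa region, chr17:45953651-45953898, lay 63.2 kb beyond the gene's lower end, away from the promoter. It had a score of 28 in KN-RM, 38 in KC-N, 49 in Ly6CLo-RM, 68 in Ly6CHi-RM and 71 in blood, and was thus in all 5 NASH lists. At the promoter printed above, chr17:46032290-46032508, the score was 27 in KC-N, 47 in Ly6CLo-RM, 48 in Ly6CHi-RM and 25 in blood. A region 0.505 kb upstream of that start, at chr17:46032775-46032990, had a score of 19 in KN-RM, 26 in Ly6CLo-RM, 41 in Ly6CHi-RM and 50 in blood. These start regions were of low to middling rank in every list, between percentiles 2.24 and 58.7. Ly6CLo-RM alone held chr17:46056664-46056864, 24.4 kb upstream, with a score of 39. In equal-length lists Vegfa had 2 peaks in KN-RM, 1 in KC-N, 0 in KC-H, 3 in Ly6CLo-RM, 2 in Ly6CHi-RM and 2 in blood.

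Osm (chr11:4236785-4241026), a short gene beside the related cytokine gene Lif, was the other gene without a KC-H peak. It had 4 peaks in KN-RM, 2 in KC-N, 0 in KC-H, 7 in Ly6CLo-RM, 10 in Ly6CHi-RM and 5 in blood. The nearest KC-H peak was 14.3 kb away and belonged to Castor1. In equal-length lists the counts were 4 in KN-RM, 1 in KC-N, 0 in KC-H, 5 in Ly6CLo-RM, 5 in Ly6CHi-RM and 3 in blood.

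The leading Osm region, chr11:4232743-4233025, lay 3.86 kb outside the gene and was in all 5 NASH lists, with a score of 65 in KN-RM, 39 in KC-N, 107 in Ly6CLo-RM, 149 in Ly6CHi-RM and 127 in blood. It stood at percentile 87.8 in KN-RM, 51.2 in KC-N and 94.4 in Ly6CHi-RM. The lower end of the gene, chr11:4236618-4236966, had a score of 20 in KN-RM, 52 in Ly6CLo-RM, 117 in Ly6CHi-RM and 63 in blood, and no peak in KC-N. Inside the gene, chr11:4237568-4237790 had a score of 30 in KN-RM, 55 in Ly6CLo-RM, 116 in Ly6CHi-RM and 95 in blood. Toward the other end, chr11:4240208-4240511 was held by Ly6CLo-RM with a score of 33 and by Ly6CHi-RM with a score of 95, at percentile 81.6. The lower end and body of Osm thus had peaks in KN-RM, in the CD11b-high macrophages and in blood. In KN-RM these stood at percentiles of 3.75 and 38.2 only. KC-N had only the outlying region and a peak with a score of 20, at percentile 2.75, at chr11:4235374-4235607. The contrast between KN-RM and KC-N thus rests on weak peaks.

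Of 2805 protein-coding genes with at least 10 merged regions, 33 (1.18%) had no peak in KC-H. Vegfa and Osm were 2 of the 8 of the 10 genes that had as many regions. All 11 regions of each were absent from KC-H, so both passed this cut through the NASH lists only. The 10 genes were also chosen with earlier results of these data known, so this share is no test of their absence from KC-H. Of the same 2805 genes, 2.10% had no peak in KN-RM and 0.214% none in blood, and none of the 8 was among them.

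Fn1 (chr1:71585473-71653280) had the opposite lean to Igf1 and Pdgfc. It had 1 peak in KN-RM, 2 in KC-N, 3 in KC-H, 4 in Ly6CLo-RM, 8 in Ly6CHi-RM and 10 in blood, in 10 regions, of which 7 were in blood or CD11b-high lists only. Equal-length lists left 1 peak each in KN-RM, KC-N, KC-H and Ly6CLo-RM, against 5 each in Ly6CHi-RM and blood. At the upper end of the gene, chr1:71653148-71653380 was held by Ly6CLo-RM with a score of 27, Ly6CHi-RM with 81 and blood with 128, at percentiles of 25.8, 75.8 and 91.3 of these lists. The adjoining region at chr1:71652711-71652916 was held by Ly6CHi-RM with a score of 67 and blood with 82.

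No F4/80-high list had a peak inside Fn1, and the nearest in each, 28.3 to 28.4 kb away, belonged to Atic. The F4/80-high peaks assigned to Fn1 lay in a distal group of regions 75.8 to 82.5 kb from the gene. There, chr1:71731076-71731339 was in all 6 lists, with a score of 33 in KN-RM, 44 in KC-N, 49 in KC-H, 33 in Ly6CLo-RM, 70 in Ly6CHi-RM and 82 in blood. Its neighbour chr1:71729025-71729241 had a score of 24 in KC-H, 30 in Ly6CLo-RM, 53 in Ly6CHi-RM and 55 in blood.

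Mmp12 (chr9:7344397-7360461) had 4 peaks in KN-RM, 8 in KC-N, 5 in KC-H, 4 in Ly6CLo-RM, 5 in Ly6CHi-RM and 7 in blood. Cut to equal length, the lists held 4 in KN-RM, 5 in KC-N, 3 in KC-H, 3 in Ly6CLo-RM, 2 in Ly6CHi-RM and 3 in blood. Of its 10 regions, 3 were in all 6 lists, 3 in F4/80-high lists only and 2 in blood or CD11b-high lists only. Shared regions included chr9:7331933-7332179, 12.3 kb outside the gene, with a score of 25 in KN-RM, 47 in KC-N, 60 in KC-H, 51 in Ly6CLo-RM, 70 in Ly6CHi-RM and 75 in blood. The upstream start, at chr9:7344232-7344447, was under weak peaks of KC-N, with a score of 23, and blood, with a score of 30.

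The downstream start of Mmp12, printed above with its AP-1 letters, lay in the region chr9:7347257-7347461, which only KN-RM and KC-N held. Its score was 35 in KN-RM, at percentile 51.5, and 62 in KC-N, at percentile 77.5. In KC-N this was the highest score of any Mmp12 peak, and in KN-RM it was also the highest. These are the NASH-diet F4/80-high lists; KC-H, of the control diet, had a score of 29 at the nearest region, chr9:7345922-7346218, 1.30 kb upstream of that start. KC-N alone held chr9:7343228-7343428, 1.07 kb outside the gene, with a score of 35.

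Mmp14 (chr14:54431598-54442456) had few regions, 5, with 2 peaks in KN-RM, 3 in KC-N, 3 in KC-H, 5 in Ly6CLo-RM, 4 in Ly6CHi-RM and 4 in blood. In equal-length lists the counts were 2 in KN-RM, 0 in KC-N, 0 in KC-H, 2 in Ly6CLo-RM, 2 in Ly6CHi-RM and 1 in blood. KN-RM equalled the CD11b-high lists in number only. Its 2 peaks lay in 1 merged region, at percentiles of 8.93 and 27.9, and its list is not shortened in this setting. The 2 of Ly6CLo-RM lay in separate regions, at percentiles of 68.5 and 55.3. The intragenic region chr14:54433574-54433788, 2.08 kb after the start, had a score of 21 in KC-N, 26 in KC-H, 29 in Ly6CLo-RM, 68 in Ly6CHi-RM and 77 in blood, and no peak in KN-RM. At the far end, chr14:54442385-54442877 was in all 6 lists, with a highest score of 27 in KN-RM, 24 in KC-N, 37 in KC-H, 58 in Ly6CLo-RM, 53 in Ly6CHi-RM and 20 in blood. Beyond it, chr14:54449051-54449281 had a score of 35 in KC-H, 44 in Ly6CLo-RM, 38 in Ly6CHi-RM and 33 in blood.

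**Figure D2:**
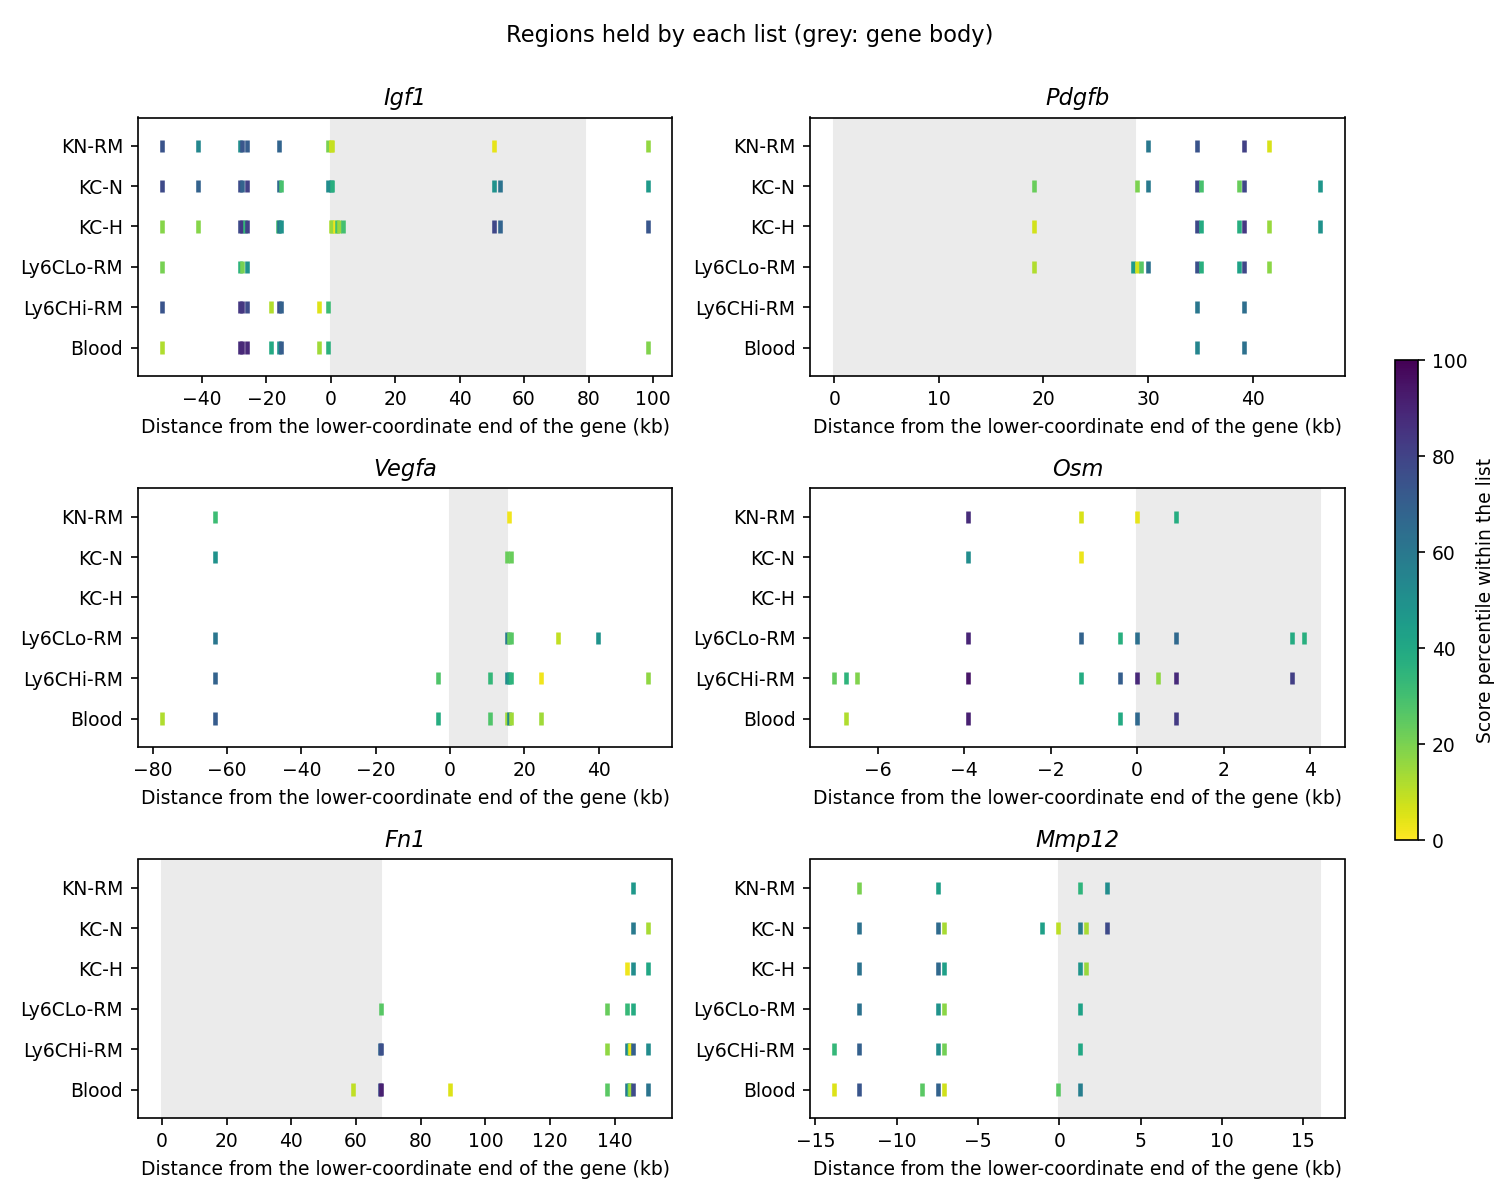
Merged regions at 6 of the genes, drawn by their distance in kb from the lower-coordinate end of the gene (x axis), with 1 row per peak list and a tick for each region the list held, coloured by its score percentile within that list. Vegfa and Osm have empty KC-H rows, and the rows of blood and Ly6CHi-RM are the fullest at Fn1.

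Taking the 123 regions of the 10 genes by the lists that held them, 21 were in all 6 lists (17.1%, 95% Wilson interval 11.4% to 24.7%), against 25.9% of the regions of all protein-coding genes. Regions in 1 list only numbered 33 (26.8%), against 27.3% of all, and were held by KC-N (5), KC-H (12), Ly6CLo-RM (6), Ly6CHi-RM (4) and blood (6). Regions in F4/80-high lists only numbered 36 (29.3%, 22.0% to 37.8%), against 17.9% of all. Of the 36, 26 were at Pdgfc and Igf1; at the other 8 genes the share was 13.3% (10 of 75). Held by the 3 F4/80-high lists and no other were 10 regions (8.13%, 4.48% to 14.3%), against 1.84% of all. They belonged to Igf1 (4), Pdgfc (4) and Tgfb1 (2), and without Igf1 and Pdgfc the share was 2.67%.

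Regions in blood or CD11b-high lists only numbered 31 (25.2%, 18.4% to 33.5%), against 29.2% of all. Vegfa, Osm and Fn1 had 7 each, and Tgfb1 had none. Shared by blood, Ly6CLo-RM and Ly6CHi-RM, and absent from the F4/80-high lists, were 4 regions (3.25%), against 5.67% of all: 2 at Fn1, 1 at Osm and 1 at Mmp14. Both kinds of list held 56 regions (45.5%), against 52.9% of all. In NASH lists and not in KC-H were 51 regions (41.5%, 33.1% to 50.3%), against 36.5% of all, and 22 of these were the regions of Vegfa and Osm. All 5 NASH lists but not KC-H held 2 regions (1.63%), against 0.836% of all, the outlying regions of Vegfa and Osm given above. No region was in all 5 liver lists and not in blood, against 0.923% of all. The intervals cover counting error only, and regions of 1 gene are not independent of each other.

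**Figure D3:**
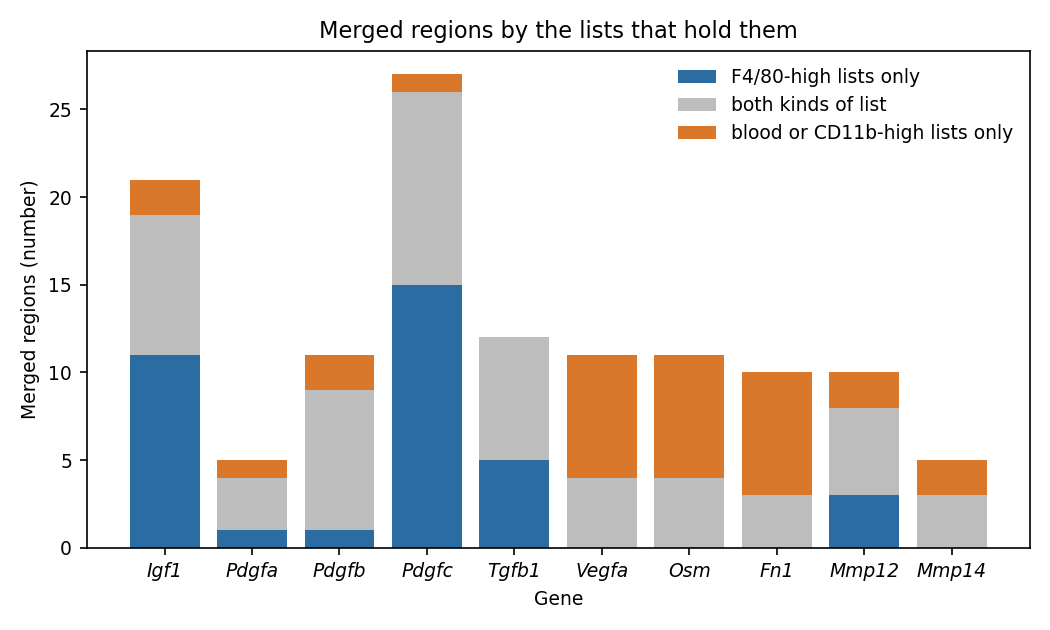
Number of merged regions of each gene by the kind of list that held them: F4/80-high lists only, blood or CD11b-high lists only, or both kinds. F4/80-high-only regions make up 15 of 27 at Pdgfc and 11 of 21 at Igf1, and 0 at Vegfa, Osm, Fn1 and Mmp14.

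By position, 59 of the 123 regions had a peak whose centre was inside the gene (48.0%). The share was 60.8% for the regions of all protein-coding genes, counted the same way. Of the 123, 31 lay over 10 kb away. The assignment by distance ends at 100 kb. Just inside it were a KC-N peak of Pdgfc at 92.2 kb with a score of 23 and a KC-H peak of Fn1 at 82.5 kb with a score of 41. Just outside were a blood peak 104.2 kb from Fn1 with a score of 39 and a KC-H peak 104.5 kb from Igf1 with a score of 35. In all, 26 peaks in 12 regions had 1 of 3 of these genes as their nearest gene beyond the limit and were not counted.

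How the NASH diet bears on Kupffer cells with Tim4 is addressed by setting KC-N against KC-H. Of the 74 KC-N peaks, 18 had no overlapping KC-H peak (24.3%, 16.0% to 35.2%), against 13.3% of the peaks of all protein-coding genes. These 18 comprised 5 at Pdgfc, 3 at Vegfa, 3 at Mmp12, 2 at Osm, 2 at Pdgfb and 1 each at Igf1, Tgfb1 and Mmp14. For Vegfa and Osm they were all the KC-N peaks. In the other direction, 16 of the 72 KC-H peaks had no overlapping KC-N peak (22.2%, 14.2% to 33.1%), against 31.0% of all: 6 at Igf1, 4 at Pdgfc, 3 at Tgfb1 and 1 each at Pdgfb, Fn1 and Mmp14. Most were weak in KC-H, with a median percentile of 24.3, and 1 of the 16 was in the better-scored 50% of the list. The 18 KC-N peaks missing from KC-H were also weak in KC-N, with a median percentile of 22.9. Of these 18, 4 were in the better-scored 50% of the KC-N list. With equal-length lists, 17 of 48 KC-N peaks (35.4%) were missing from KC-H, against 18.3% of all, and 2 of 33 KC-H peaks (6.06%) were missing from KC-N, against 18.3% of all. Requiring no KC-H peak centre within 1000 bp left 12 KC-N peaks (16.2%), against 8.93% of all, and requiring no KC-N centre left 9 KC-H peaks (12.5%), against 20.0% of all.

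The F4/80-high cells without and with Tim4 on the NASH diet, KN-RM and KC-N, differed at these genes by shares near the background in both directions. Of 49 KN-RM peaks, 4 had no overlapping KC-N peak (8.16%, 3.22% to 19.2%), against 5.67% of all, and they lay at Osm (2), Pdgfb (1) and Vegfa (1). The Osm pair were the peaks at the lower end and in the body of the gene. Of 74 KC-N peaks, 29 had no overlapping KN-RM peak (39.2%, 28.9% to 50.6%), against 35.6% of all, among them 10 at Pdgfc, 5 at Pdgfb and 4 at Mmp12. All KN-RM peaks of Igf1, Pdgfc, Tgfb1 and Mmp12 overlapped a KC-N peak. The counts followed the lengths of the lists: with equal-length lists 11 of 49 KN-RM peaks (22.4%) were missing from KC-N, against 16.2% of all, and 10 of 48 KC-N peaks (20.8%) were missing from KN-RM, against 16.1% of all.

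KN-RM and Ly6CLo-RM both came from NASH-diet liver, sorted as F4/80-high and as CD11b-high cells. Of 49 KN-RM peaks, 19 had no overlapping Ly6CLo-RM peak (38.8%, 26.4% to 52.8%), against 14.6% of all. Igf1 and Pdgfc had 7 each, Tgfb1 had 2, and Pdgfa, Mmp12 and Mmp14 had 1 each; outside Igf1 and Pdgfc the share was 19.2% (5 of 26). In the other direction 26 of 56 Ly6CLo-RM peaks had no overlapping KN-RM peak (46.4%, 34.0% to 59.3%), against 46.3% of all, a share at the background, with 6 at Pdgfb, 4 at Vegfa and 4 at Mmp14. With equal-length lists the order of the counts turned, to 26 of 49 KN-RM peaks (53.1%), against 26.4% of all, and 7 of 30 Ly6CLo-RM peaks (23.3%), against 26.7% of all. Every KN-RM peak of Pdgfb, Vegfa, Osm and Fn1 overlapped a Ly6CLo-RM peak.

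Between the recruited macrophages with low and high Ly6C, Pdgfb stood apart. Of 56 Ly6CLo-RM peaks, 14 had no overlapping Ly6CHi-RM peak (25.0%, 15.5% to 37.7%), against 13.8% of all. Pdgfb accounted for 8 of the 14, and at the other 9 genes 6 of 46 were missing, a share near the background. Of 61 Ly6CHi-RM peaks, 19 had no overlapping Ly6CLo-RM peak (31.1%, 20.9% to 43.6%), against 23.3% of all, with 5 at Igf1, 4 at Vegfa, 4 at Osm and 4 at Fn1. With equal-length lists these became 8 of 30 Ly6CLo-RM peaks (26.7%), against 17.5% of all, and 12 of 34 Ly6CHi-RM peaks (35.3%), against 17.5% of all.

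Ly6CHi-RM and blood monocytes share high Ly6C, and the shares of missing peaks at these genes were near the background in both directions. Of 61 Ly6CHi-RM peaks, 7 had no overlapping blood peak (11.5%, 5.67% to 21.8%), against 10.9% of all. Osm had 5 of the 7, and at the other 9 genes the share was 3.92% (2 of 51). Of 66 blood peaks, 12 had no overlapping Ly6CHi-RM peak (18.2%, 10.7% to 29.1%), against 21.1% of all, with 5 at Pdgfc, 2 at Fn1 and 2 at Mmp12. In equal-length lists 6 of 34 Ly6CHi-RM peaks (17.6%) and 5 of 33 blood peaks (15.2%) were missing from the other list, against 15.5% and 15.3% of all. Only the Ly6CHi-RM cells went through liver digestion, so the tissue and the way of isolation cannot be told apart here.

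**Figure D4:**
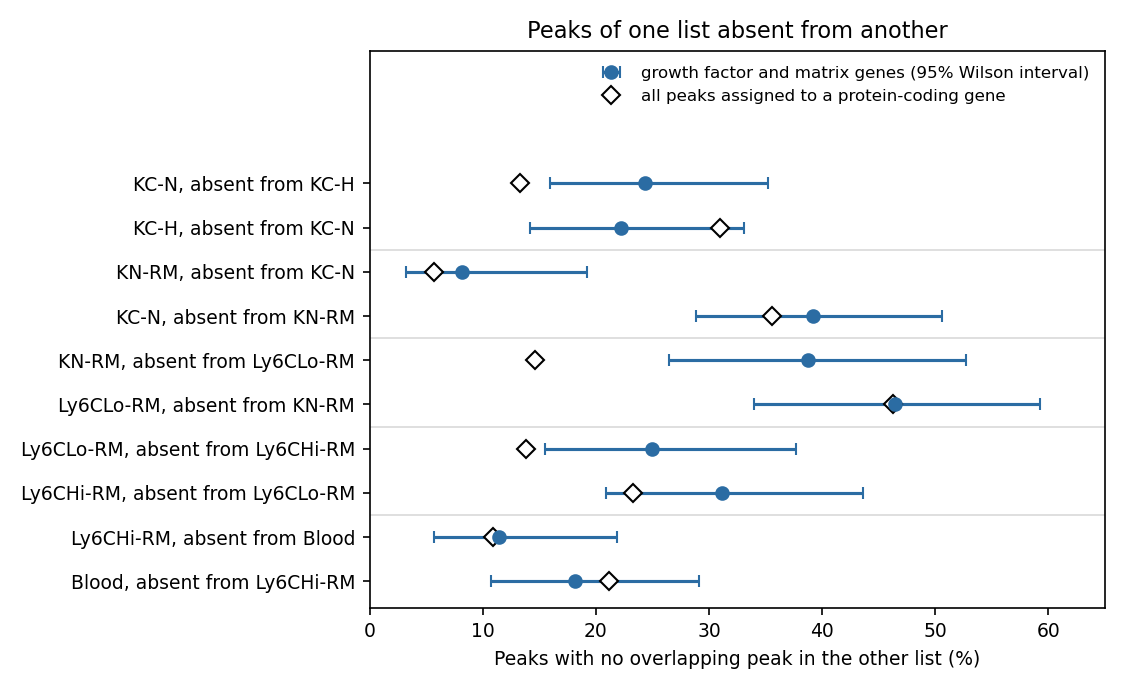
Share of the peaks of the first-named list that no peak of the other list overlapped, in percent, for the 5 comparisons in both directions; filled points with 95% Wilson intervals are the 10 genes and open diamonds are all protein-coding genes. The shares of the 10 genes stand furthest above the background for KN-RM peaks missing from Ly6CLo-RM (38.8% against 14.6%).

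Other genes of the same pathways were counted from 6 lists of genes. These counts were not repeated with equal-length lists, and over all protein-coding genes blood had 66595 peaks and KN-RM 32988. For scale, the 10 genes had more peaks in KC-N than in KC-H at 5 and fewer at 3, whereas of all 21900 protein-coding genes 1893 had more and 7280 had fewer. Among 14 receptor genes, 2 had more and 9 had fewer in KC-N; their peaks summed to 60 in KN-RM, 101 in KC-N, 126 in KC-H, 113 in Ly6CLo-RM, 141 in Ly6CHi-RM and 177 in blood. Igf1r, the receptor of insulin-like growth factor 1, had 4 peaks in KN-RM, 7 in KC-N, 14 in KC-H, 13 in Ly6CLo-RM, 17 in Ly6CHi-RM and 24 in blood. Unlike the ligand gene, it had its highest count in blood. The VEGF co-receptor gene Nrp1 had 7 peaks in KN-RM, 9 in KC-N, 15 in KC-H, 12 in Ly6CLo-RM, 19 in Ly6CHi-RM and 26 in blood, and Nrp2, another such co-receptor gene, had 4, 16, 13, 18, 25 and 25 in the same order of lists.

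Of 17 other growth factor genes, 1 had more and 6 fewer peaks in KC-N than in KC-H. Tgfb2, a relative of Tgfb1, had 0 peaks in KN-RM, 3 in KC-N, 9 in KC-H, 1 in Ly6CLo-RM, 3 in Ly6CHi-RM and 2 in blood. Lif, the neighbour of Osm, had 3 in KN-RM, 4 in KC-N, 4 in KC-H, 7 in Ly6CLo-RM, 10 in Ly6CHi-RM and 8 in blood, so KC-H peaks were found at Lif and not at Osm. Of 14 genes of growth factor binding and activation, 5 had more and 6 fewer. Ltbp1, which encodes a binding protein of latent TGF-beta, had 1 peak in KN-RM, 2 in KC-N, 1 in KC-H, 6 in Ly6CLo-RM, 7 in Ly6CHi-RM and 12 in blood.

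Among 18 genes of proteases and their inhibitors, 5 had more and 6 fewer peaks in KC-N, and the lists were close, with sums from 57 in Ly6CLo-RM to 78 in KC-H. Ctsb, encoding the lysosomal protease cathepsin B, had 12 in KN-RM, 14 in KC-N, 20 in KC-H, 11 in Ly6CLo-RM, 9 in Ly6CHi-RM and 9 in blood. Of 18 matrix and matrix receptor genes, 5 had more and 4 fewer. Itgb3, encoding an integrin chain that binds fibronectin, had no peak in KN-RM, KC-N or KC-H, against 6 in Ly6CLo-RM, 10 in Ly6CHi-RM and 9 in blood. The collagen gene Col4a1 had 4 in KN-RM, 9 in KC-N, 7 in KC-H, 12 in Ly6CLo-RM, 20 in Ly6CHi-RM and 17 in blood, and like Fn1 its highest counts were in the last 2. Of 11 regulators, 4 had more and 7 fewer; Runx1, a transcription factor gene, had 16 in KN-RM, 24 in KC-N, 28 in KC-H, 25 in Ly6CLo-RM, 41 in Ly6CHi-RM and 38 in blood.

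For the 8 of the 10 genes with at least 10 regions, the gene with the most similar pattern was sought among 2804 others, by the sum of absolute differences in the share of regions held by each of the 6 lists. All values come from the same 6 lists. Igf1 was nearest to Atp8a1 (0.303) and Pparg (0.335), Pdgfc to Shtn1 (0.277) and Mrps28 (0.280), and Tgfb1 to Slc8b1 (0.167) and Sdcbp (0.178). Vegfa was nearest to Pxylp1 (0.242), which also had no KC-H peak, and to Tns1 (0.333). Fn1 was nearest to Jazf1 (0.229) and Eif4e3 (0.271), and Mmp12 to Wdr25 (0.182) and Rrbp1 (0.300). Pdgfb and Osm had no close match, with a least difference of 0.622 (Rgs1) for Pdgfb and 0.727 (Arnt2) for Osm.

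The labels were set against marker genes. Peaks at 10 Kupffer cell genes summed to 37 in KN-RM, 58 in KC-N, 123 in KC-H, 19 in Ly6CLo-RM, 28 in Ly6CHi-RM and 29 in blood, and those at 9 monocyte genes to 24, 33, 46, 43, 64 and 71 in the same order. Timd4, the gene of the sort marker Tim4, had 0 peaks in KN-RM, 1 in KC-N, 17 in KC-H, 1 in Ly6CLo-RM, 0 in Ly6CHi-RM and 0 in blood. By peaks at Timd4 alone, KC-N was no different from Ly6CLo-RM, so this gene does not bear out its Tim4-positive label. Peaks do not measure the protein used in the sort. Over the 10 Kupffer cell genes KC-N and Ly6CLo-RM did differ, with 58 peaks against 19. At Cd5l they had 13 against 1 and at Clec4f 7 against 0, and no gene of that list had fewer in KC-N. By these sums, the lists that led at Igf1 and Pdgfc led at the Kupffer cell genes, and those that led at Fn1 led at the monocyte genes. Single genes went the other way. The Kupffer cell gene Vsig4 was highest in blood (6, against 5 in KC-H), and the monocyte gene Plac8 in KC-H (18, against 12 in blood). The sums were not recounted with equal-length lists, and over all protein-coding genes blood had 66595 peaks and KN-RM 32988.

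Of 8 liver endothelial genes, 7 had a peak, with sums of 14 in KN-RM, 25 in KC-N, 37 in KC-H, 24 in Ly6CLo-RM, 26 in Ly6CHi-RM and 27 in blood. Tek was at 0 in all lists. Stab2 had 7, 13, 19, 1, 1 and 1 peaks in that order, highest in the F4/80-high lists as at Igf1 and Pdgfc, whereas Kdr had 2, 3, 2, 7, 5 and 7 and Fcgr2b had 1, 3, 4, 5, 9 and 8. The remaining 4 with a peak were Pecam1, with 4 to 8 in each list, and Clec4g, Ptprb and Lyve1, with 0 to 2. Of 10 stellate cell genes, 6 had a peak, with sums of 8 to 20, and Lrat, Des, Col3a1 and Reln were at 0 in all lists. Of 7 hepatocyte genes, 3 had a peak, with sums of 1 to 3 in the liver lists and 13 in blood, where Alb had 11; Serpina1a, Cyp2e1, Fgb and Tat were at 0. Neutrophil genes (3 of 6 with a peak) summed to 1 to 7, B cell genes (3 of 4) to 1 to 4, and T and NK cell genes (3 of 6) to 7 to 15. The part of other cells in the differences above was not tested.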

How the data were processed

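ATAC-seq data of 12 libraries, 2 in each of 6 populations, were taken as the peak lists the authors deposited, 1 per population. Bowtie2, HOMER, DESeq2 and the builds mm10 and GRCm38 are named, without roles, in the submitters' processing notes; sequencing depth, filtering of reads and transposase shift were not given in the sources used here. Each deposited row holds a position, a signal (the authors' normalized tag count, used here only to break ties in rank) and a score, the authors' whole number per peak, used to rank peaks within a list.

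Peaks were assigned with RefSeq positions of 21900 protein-coding genes on GRCm38.p6, and merged regions are peaks of any list that overlap by 1 bp or more. A peak was missing from another list when no peak there overlapped it by 1 bp; backgrounds are all peaks or regions assigned to a protein-coding gene. Wilson intervals are at 95% and cover counting error only. All 10 genes are described, with for each its highest-scored region and up to 3 regions by each pattern of lists; for other genes the rule was the 2 nearest patterns and, per pathway list, up to 3 genes with the largest range of peaks, of which the text names some. The members and lists were chosen with earlier results of these data known. Annotation of exons, introns and untranslated regions was not used here. Functions were checked on simulated lists. Scripts ran in Python 3.11.15 (pandas 2.3.3, numpy 2.4.6), with scipy 1.17.1 for intervals and matplotlib 3.10.9 for figures.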

Additional observations from a re-analysis of the deposited data

How the results depend on the processing

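All 19 counts behind the text were recomputed with equal-length lists, with the best-scored 50% of each list, with a 20 kb window and by nearest gene end. For missing peaks, the best-scored 50% was taken of the first-named list only and set against the whole of the other list. The 13 counts that rest on overlap were recomputed with an overlap of 50% of the shorter peak, and the 10 counts of missing peaks with absence taken as no centre within 1000 bp. Leaving out the KN-RM list, a setting chosen after seeing the data, was run on the 3 counts of merged regions and on no count of missing peaks. Of 102 values, 64 stayed within 1.5 times the count in the text and 38 did not. The 20 kb window and the nearest gene end moved none of the 19, and leaving out KN-RM moved none of its 3.

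Requiring 50% overlap moved KN-RM peaks missing from KC-N to 7. The distance of 1000 bp moved KC-H peaks missing from KC-N to 9, KC-N from KN-RM to 16, Ly6CLo-RM from KN-RM to 17 and Ly6CHi-RM from blood to 3. Equal-length lists moved KC-H from KC-N to 2, KN-RM from KC-N to 11, KC-N from KN-RM to 10, Ly6CLo-RM from KN-RM to 7, Ly6CLo-RM from Ly6CHi-RM to 8, Ly6CHi-RM from Ly6CLo-RM to 12, blood from Ly6CHi-RM to 5, all regions to 73, regions in 1 list to 14, and peaks to 48 in KC-N, 33 in KC-H, 30 in Ly6CLo-RM, 34 in Ly6CHi-RM and 33 in blood. In the best-scored 50%, missing peaks were 4 for KC-N from KC-H, 1 for KC-H from KC-N, 0 for KN-RM from KC-N, 2 for KC-N from KN-RM, 5 for KN-RM from Ly6CLo-RM, 3 for Ly6CLo-RM from KN-RM, 2 for Ly6CLo-RM from Ly6CHi-RM, 4 for Ly6CHi-RM from Ly6CLo-RM, 1 for Ly6CHi-RM from blood and 0 for blood from Ly6CHi-RM. Regions then fell to 58 in all, 10 in all 6 lists and 16 in 1 list, and peaks to 21 in KN-RM, 32 in KC-N, 29 in KC-H, 21 in Ly6CLo-RM, 33 in Ly6CHi-RM and 33 in blood. These last 2 settings hold fewer peaks by construction, and for missing peaks the best-scored 50% was set against the whole other list. The direction with more missing peaks turned with equal-length lists for KN-RM and KC-N, KN-RM and Ly6CLo-RM, and Ly6CHi-RM and blood, and with the best-scored 50% for the last 2 of these.

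No paired analysis was possible because each list was made from both libraries of its population and has no value per library, so leaving out a replicate gave no value either. Depth was not given in the sources used here, so how much of a missing peak is depth was not tested.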
